A study of Homo sapiens with 24 samples.

Results

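The transcripts described here encode the secretory granule and the machinery of regulated exocytosis. The set holds 46 protein-coding genes listed by symbol, which were chosen with earlier results of these data known. Its shares beside those of all coding genes are therefore descriptive. Its members are the m6A peaks that carry the gene identifier of one of these symbols. Of the 228472 peaks in the 6 lists of the series, 518 lay on these genes, and each of the 46 genes had a peak in at least 1 list. Among all 20046 protein-coding genes of GENCODE release 44, 81.8% had a peak in at least 1 list. The genes were ordered by role, as 7 granins and other granule cargo, 5 granule membrane proteins, 8 SNARE proteins, 7 calcium sensors, 5 Rab3 and Rab27 GTPases, 6 Rab effectors and 8 priming, clamping and SNARE recycling factors.

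The study followed N6-methyladenosine (m6A) on RNA while MEL1 INSGFP/W human embryonic stem cells, an established line kept on feeder cells in which the insulin promoter at its own locus drives GFP, were taken stepwise to the pancreatic lineage. In m6A-seq, fragmented RNA is precipitated with an m6A antibody, and the reads of this IP are compared with those of the same RNA sequenced without precipitation, the input. A methylated stretch is a peak of IP over input. Batch 1 holds 4 stages, the undifferentiated cells (hPSC), the definitive endoderm (DE), then progenitors of the pancreas (PP) and last islet-like organoids (hILO), made from poly(A)-selected mRNA with a SYSY antibody. PP of the line not edited at ALKBH5 (WT PP) and PP lacking the m6A demethylase ALKBH5 (A5-KO PP) form batch 2, in which total RNA, a Millipore antibody and a SMARTer kit were used.

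The reporter is shared by all 6 populations, and the 4 of batch 1 are not edited at ALKBH5. PP were the cells after the last progenitor medium of the protocol, and hILO were made from them by suspending the cells as aggregates in organoid media with zinc sulfate and T3. A5-KO PP came from a line grown from a picked colony and edited in the first exon of ALKBH5 with CRISPR-Cpf1, so the genotype and the colony cannot be told apart. The 24 libraries form 12 groups of 2, since each population has 2 IP and 2 input libraries. A single peak list per population was used, called by the authors on its libraries together, so no value had a replicate error and no test between populations was made. Where a population has no peak on a gene, a transcript that is absent and a transcript that is present without m6A cannot be told apart, nor can fewer cells of a type and less RNA per cell.

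Endocrine cells store peptide hormones in dense-core granules that are built from granins and released when calcium rises. Rab3 and Rab27 GTPases and their effectors bring granules to the plasma membrane, UNC13 and CAPS proteins prime them, and the SNARE proteins of the granule and of the plasma membrane pair to fuse them, with synaptotagmins as calcium sensors and complexins as clamps. NSF and its adaptor alpha-SNAP take the SNARE complexes apart again for reuse. m6A is written mostly at DRACH sequences, a consensus of 5 bases around a methylated adenosine, of which those with GGAC are the most typical, and in mRNA it is most frequent around the stop codon and in the 3′ UTR.

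The sequences that carry the onset in organoids are shown first. Members with no peak in hPSC, DE or PP and at least 1 in hILO were PTPRN, SYP, SLC18A1, STX1A, SYT4, RIMBP2, CPLX2 and NAPA. For 7 of these, the hILO peak of highest enrichment is represented by 21 nt of its transcript strand, read 5′ to 3′ from GRCh38. The capitals mark a DRACH motif, chosen as the one nearest to the middle of the peak, with motifs that contain GGAC taken first.
PTPRN (chr2:219289665-219289685, minus strand, 3′ UTR): tctagaaaAAACTacttttgt
SYP (chrX:49191205-49191225, minus strand, off the longest coding isoform): ttcaagatGGACAgaatgaag
STX1A (chr7:73699294-73699314, minus strand, 3′ UTR): gccttcttGAACAgcgattcc
SYT4 (chr18:43268400-43268420, minus strand, 3′ UTR): ttttttttTAACAtggaacaa
RIMBP2 (chr12:130397244-130397264, minus strand, 3′ UTR): ttctccccTGACAccagtaga
CPLX2 (chr5:175883063-175883083, plus strand, 3′ UTR): aagggagaGAACCcccagatg
NAPA (chr19:47512716-47512736, minus strand, off the longest coding isoform): gggctgatGGACTggattgat

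For contrast, 6 members had an hILO peak that was also found in hPSC, DE and PP, that is, with over 50% of its exonic length under peaks of each earlier list on its own strand. Their sites were chosen in the same way among such peaks, except that of STX4. The STX4 peak of highest log2 enrichment among them, at 1.94, held no DRACH motif. The STX4 site shown lies in another of them, at 1.72.
RAB3D (chr19:11325145-11325165, minus strand, 3′ UTR): aggcccagGGACActgacgtg
STX4 (chr16:31033803-31033823, plus strand, off the longest coding isoform): gccatgcgGGACAggacccac
SV2A (chr1:149913620-149913640, minus strand, coding sequence): aggagaagGGACCcaggatga
UNC13B (chr9:35405182-35405202, plus strand, 3′ UTR): agcctcctGGACTtcctgagg
VAMP3 (chr1:7771334-7771354, plus strand, 5′ UTR): ttctctgcTGACCctctctcg
VAMP8 (chr2:85579039-85579059, plus strand, coding sequence): cgtgtgcgGAACCtgcaaagt

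A motif in a peak is a match of letters and not a measured methylation site. Of the 18 hILO peaks on the 8 members first seen there, 17 held a DRACH motif and 8 held GGAC. Among all hILO peaks 92.9% held DRACH and 55.8% held GGAC, so nearly any peak of this length offers a DRACH match.

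The library facts that touch the results come next. The input reads counted in peaks were 6987612 in PP, the smallest of the 6 lists, and 28463998 in hILO, the largest, and with a minimum of input reads per peak that was scaled to the depth of each list, an alternative chosen after seeing the data, 15 members had a peak in PP and 31 in hILO (32.6% and 67.4%), against 8658 and 9360 coding genes (52.8% and 57.1%). ALKBH5, the edited gene, was checked first: its 4 peaks of WT PP held 289 input and 836 IP reads, and its 5 peaks of A5-KO PP held 1 and 592. The deposited counts of neighbouring peaks followed each other only weakly. Between neighbouring peaks of a gene less than 300 nt apart, the Spearman correlation of input reads per kb lay between 0.21 and 0.35 in the 6 lists, over 5950 to 12782 pairs that share libraries and genes. At peaks shared by 2 lists the correlation of log2 enrichment lay between 0.12 and 0.32, over 8 pairs of lists. Read counts are therefore given only as the depth behind a peak and not as transcript levels, and presence and position of a peak are described before its enrichment. The labelled cell types were checked on markers: of 10 islet endocrine markers 1, 1, 2 and 8 had a peak in hPSC, DE, PP and hILO, where INS, GCG and SST each had one and the defining markers IAPP and PPY had none. Markers of other cells had peaks in hILO as well: all 7 hepatic markers, ALB and AFP among them, had one against 0 in PP, and 6 of 7 enterochromaffin markers against 2 in PP. In WT PP of batch 2, 6 of the 7 hepatic markers had a peak, in A5-KO PP 4, and of the endocrine and enterochromaffin markers 2 each had one in WT PP. Of 9 neuronal markers 5 had a peak in hILO and 2 in PP, with none in hILO on ELAVL4, DCX, MAP2 and TUBB3. The part of these cells in the results below was not tested.

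Fewer of the 46 members carried a peak in PP than in stem cells, and the most carried one in organoids. Of the 46 members 31, 26, 17 and 40 carried a peak in hPSC, DE, PP and hILO, which is 67.4%, 56.5%, 37.0% and 87.0% of the set. Of the 16403 protein-coding genes with a peak in any list, the shares were 73.6%, 69.7%, 63.8% and 70.5%. The members therefore ranged more widely across the stages than coding genes at large, below them in PP and above them in hILO. The batch 2 lists had a peak on 31 (WT PP) and 30 (A5-KO PP) members, or 67.4% and 65.2% against 76.7% and 85.1% of coding genes. PP of batch 1 and WT PP of batch 2 are the same cell type under different antibodies and RNA inputs, so what the cells and what the assay gave to 17 against 31 members cannot be told apart.

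**Figure D1:**
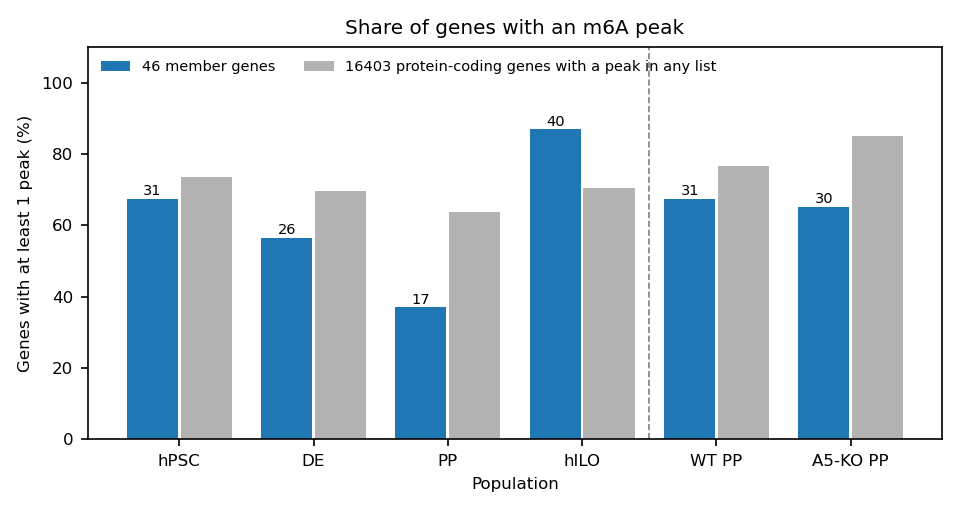
Share of genes with at least 1 m6A peak in each population, in percent, for the 46 member genes (blue, with their number above the bar) and for all 16403 protein-coding genes with a peak in any list (grey); the dashed line separates batch 1 from batch 2. The number of members was 31 in hPSC, 26 in DE, 17 at the progenitor stage and 40 in organoids, while the grey bars of the 4 stages stay between 63.8% and 73.6%.

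The number of peaks moved in the same way, with 84, 64, 44 and 109 member peaks in hPSC, DE, PP and hILO. As a share of all peaks of the list these were 0.229%, 0.196%, 0.151% and 0.346%. The order depended on the limit: at an IP to input ratio of at least 3 the member peaks were 51, 33, 29 and 43, with the most in hPSC. The batch 2 lists held 95 (WT PP) and 122 (A5-KO PP) member peaks, or 0.219% and 0.221% of their lists. Some peaks name another gene too, 25 of the 109 in hILO, with all 11 of RIMS2 and the 4 of RAB27A among them, and 2 peaks of each batch 1 list that name RAB27A beside PIGBOS1 lie on no exon of RAB27A, so that in DE 25 members had a peak on an exon of their own.

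**Figure D2:**
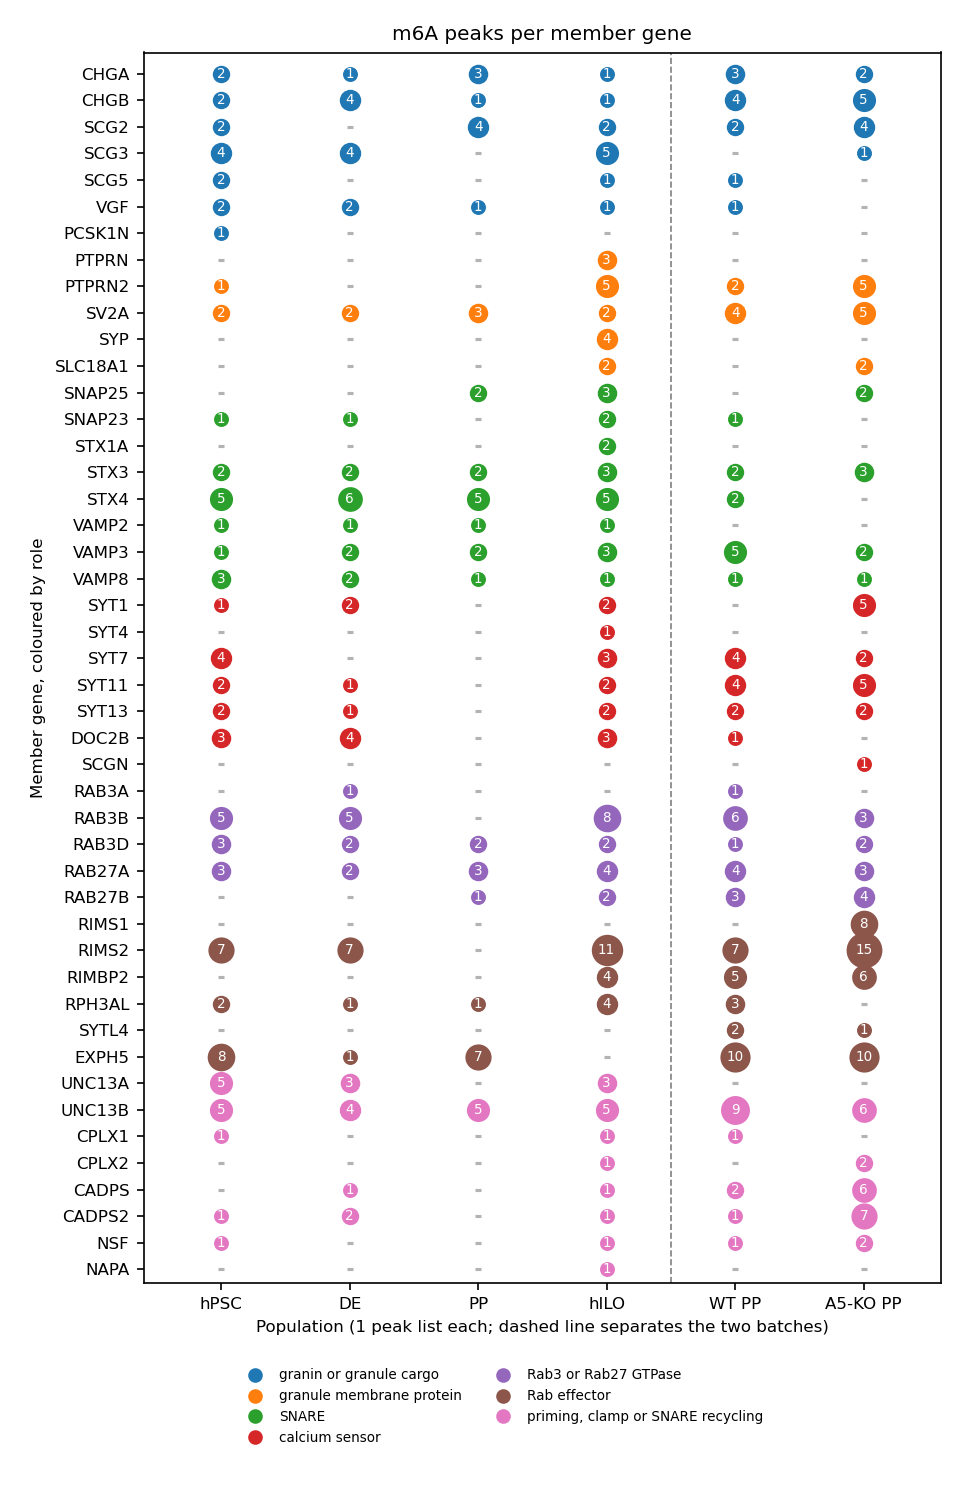
Number of m6A peaks on each of the 46 member genes (rows, coloured by role) in each of the 6 peak lists (columns); a dash marks no peak, and the dashed line separates batch 1 from batch 2. The column for PP is empty for all 7 calcium sensors, and PTPRN, SYP, STX1A, SYT4 and NAPA have a mark in the hILO column alone.

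All 7 cargo members had a peak in hPSC, and 4, 4 and 6 of them in the 3 later stages. Beside the counts per role here and below stand the shares of all coding genes with a peak in any list. These were 73.6%, 69.7%, 63.8% and 70.5% in hPSC, DE, PP and hILO. Each role holds few genes, and no role was tested. CHGA, the granin chromogranin A, had 2, 1, 3 and 1 peaks in hPSC, DE, PP and hILO, and CHGB, chromogranin B, had 2, 4, 1 and 1. The single CHGB peak of hILO reached over 2050 exonic nt and 3 exons, had a log2 enrichment of 1.39 ± 0.0251 (the error of read counting alone, as everywhere below), and was covered by hPSC peaks, where the log2 enrichment was 1.42. The CHGA peak of hILO, at 1.94 ± 0.319 with 25 input reads, lay in the coding sequence. It overlapped an earlier peak, but was not covered over more than 50% by the peaks of any earlier list. VGF, a neuropeptide precursor, had a peak in each of the 4 stages, and its hILO peak was found in hPSC and DE at 2.68 and 1.92 against 1.82 ± 0.133 in hILO. SCG3, which binds chromogranin A to the granule membrane, had 4, 4, 0 and 5 peaks in the 4 stages. Of these 5, 3 lay where hPSC and DE peaks lay, and the SCG3 peak of the 3′ UTR read 1.87, 2.15 and 1.45 ± 0.089 in hPSC, DE and hILO. SCG5, the chaperone of the prohormone convertase PCSK2, had 2, 0, 0 and 1 peaks, and its hILO peak was centred 9 nt past the stop codon. SCG2 (secretogranin II) had peaks in hPSC, PP and hILO, on 45 input reads over 2 peaks in hILO. PCSK1N, an inhibitor of the convertase PCSK1, had a single peak in hPSC and none elsewhere.

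Within batch 1, granule membrane proteins had few peaks before the organoid stage. Of the 5 members 2, 1, 1 and 5 had a peak in the 4 stages, with 3, 2, 3 and 16 peaks, while the progenitor lists of batch 2 held 6 (WT PP) and 12 (A5-KO PP). PTPRN (IA-2), a receptor-type tyrosine phosphatase homologue of the dense-core granule, had 3 peaks in hILO and none in the other 5 lists. Its 3′ UTR peak, from which the site above was taken, had 1006 input and 3597 IP reads and a log2 enrichment of 1.87 ± 0.0514, with an exomePeak2 adjusted p of 4.8e-92 for IP over input. SYP (synaptophysin) had 4 peaks in hILO and none in the other lists, between 0.78 ± 0.0631 and 1.51 ± 0.104. SLC18A1, the vesicular monoamine transporter VMAT1 of endocrine cells, had 2 peaks in hILO at 0.98 ± 0.0385 and 0.96 ± 0.119, and 2 in A5-KO PP. PTPRN2 (phogrin), the paralogue of PTPRN, went from 1 peak in hPSC and none in DE and PP to 5 in hILO, of which none overlapped a peak of an earlier stage. In batch 2 PTPRN2 had 2 (WT PP) and 5 (A5-KO PP), and 1 of its hILO peaks was found in both lists. SV2A, a vesicle glycoprotein, had 2, 2, 3 and 2 peaks, and its coding peak was found in all 4 stages at 2.09, 1.73, 1.35 and 0.96 ± 0.118.

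Of the 8 SNARE transcripts 5 had a peak at every stage, as did 50.4% of the coding genes with a peak in any list. STX3, STX4, VAMP2, VAMP3 and VAMP8, SNAREs used in many cell types, had peaks in all 4 stages. STX4, a plasma membrane syntaxin, had 5, 6, 5 and 5 peaks. STX3, a syntaxin of granule fusion, had 2, 2, 2 and 3 peaks, and 1 of its 2 hILO peaks in the 3′ UTR was found in hPSC and PP and read 2.36, 1.76 and 1.79 ± 0.0833 in hPSC, PP and hILO. VAMP2, the SNARE of the granule membrane, had 1 peak in each stage, with log2 enrichments of 1.89 ± 0.0794, 1.5 ± 0.108, 1.40 ± 0.163 and 1.98 ± 0.207 in hPSC, DE, PP and hILO. The hILO peak overlapped an earlier peak, but was not covered over more than 50% by the peaks of any earlier list. SNAP25, the neuronal and endocrine partner of syntaxin, had 0, 0, 2 and 3 peaks over the 4 stages, and 1 of its 3 hILO peaks was covered by a PP peak. SNAP23, its relative in other cells, had 1 peak in hPSC, 1 in DE, none in PP and 2 in hILO. STX1A, the syntaxin of regulated exocytosis, had 2 hILO peaks and was without any in the 5 other lists. The STX1A peak in the 3′ UTR rested on 5268 input and 15263 IP reads and had a log2 enrichment of 1.5 ± 0.0231, and the coding peak had 0.82 ± 0.0516. In all, the 8 SNARE members had a peak on 6, 6, 6 and 8 genes in the 4 stages.

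Calcium sensors had no peak in PP. Of the 7 members 5, 4, 0 and 6 had a peak in the 4 stages, with 12, 8, 0 and 13 peaks. In WT PP of batch 2, 4 of the 7 had a peak, which is SYT7, SYT11, SYT13 and DOC2B, the last on no input read. The group was thus empty in the PP list of batch 1 and not in WT PP, and the cause was not tested. SYT13, an atypical synaptotagmin of endocrine cells, had 2 hILO peaks, both in the 3′ UTR. The SYT13 peak centred 91 nt past the stop codon read 2.32 ± 0.0567 on 783 input reads and was covered by hPSC peaks at 1.94, and the other, 3704 nt past it, read 1.38 ± 0.0942 and was not seen earlier. SYT11 had a coding peak that read 2.19 in hPSC, 2.90 in DE and 0.93 ± 0.181 in hILO, and a 3′ UTR peak in hILO that was not seen earlier. SYT1, the fast sensor, had 1, 2, 0 and 2 peaks, and its coding peak over 3 exons read 1.58, 3.18 and 2.51 ± 0.239 in hPSC, DE and hILO. SYT7, a sensor of insulin granule release, had 4 peaks in hPSC and 3 in hILO. None of these 3 was covered over more than 50% by the peaks of any earlier list, though 1 overlapped an earlier peak. SYT4 had a single peak in hILO and in no other list, at 2.58 ± 0.209 on 58 input reads. DOC2B, a soluble C2-domain protein, had 3, 4, 0 and 3 peaks. SCGN (secretagogin) had no peak in the 4 stages and 1 in A5-KO PP, at 2.84 ± 0.174.

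Among the Rab GTPases and their effectors, a few genes held most peaks. RAB3B had 5, 5, 0 and 8 peaks in hPSC, DE, PP and hILO, and all 8 hILO peaks lay in its long 3′ UTR, with midpoints between 100 and 10937 nt past the stop codon. The 8 values ranged from 0.78 ± 0.13 to 2.55 ± 0.409. RAB27A, which carries insulin granules to the membrane, had 3, 2, 3 and 4 peaks, of which 1, 0, 1 and 2 lay on its own exons, and 2.43 ± 0.186 at its coding peak in hILO, and RAB27B had none in hPSC and DE, 1 in PP and 2 in hILO. RAB3D had 3, 2, 2 and 2 peaks, and 1 of its 2 hILO peaks, both in the 3′ UTR, was found in all 4 stages at 1.61, 2.80, 1.29 and 1.11 ± 0.0877. RAB3A, the isoform of synaptic vesicles, had a peak in DE and in WT PP and none in hILO. RIMS2 (RIM2), a Rab3 effector that organizes the release site, had the most hILO peaks of any member, with 7, 7, 0 and 11 over the 4 stages, and the highest hILO enrichment among peaks with at least 50 input reads, 2.59 ± 0.144. SYT4, RAB27A, RAB27B and SYT13 followed, at 2.58, 2.43, 2.38 and 2.32. RIMBP2, which links RIM to calcium channels, had 4 peaks in hILO and none in the earlier stages, while both batch 2 lists had some, 5 (WT PP) and 6 (A5-KO PP). RPH3AL (Noc2) had 2, 1, 1 and 4 peaks. EXPH5 (Slac2-b), a Rab27 effector, went the other way, with 8, 1, 7 and 0 peaks, and was the only member with a peak in PP and none in hILO, where 10.1% of the coding genes with a PP peak had none. SYTL4 (granuphilin) had peaks in batch 2 alone, 2 without and 1 with the knockout, and RIMS1 (RIM1) had 8 in A5-KO PP and none elsewhere.

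The priming, clamping and recycling factors had peaks on 5, 4, 1 and 8 of 8 genes in the 4 stages, and UNC13B was the 1 left in PP. In WT PP of batch 2, 5 of the 8 had a peak, which is UNC13B, CPLX1, CADPS, CADPS2 and NSF. Of these, CADPS2 and NSF had 1 WT PP peak each, on no input read. UNC13A and UNC13B (Munc13-1 and Munc13-2) open syntaxin for SNARE assembly. UNC13A had 5, 3, 0 and 3 peaks, and each of its 3 hILO peaks was found in hPSC and DE, with differences from hPSC between -0.30 and -0.08. UNC13B had 5, 4, 5 and 5 peaks, of which at least 3 in each stage lay in its 3′ UTR. The UNC13B peak at the 3′ end read 1.82 ± 0.0767, 1.91 ± 0.0079, 1.96 ± 0.0414 and 1.66 ± 0.029 in hPSC, DE, PP and hILO. Its read counts show the limit named above: the UNC13B peak at chr9:35404198-35404422 had 216145 input reads in hILO, the most of any member peak, and the next peak downstream had 157. CPLX1 (complexin 1) had a peak in hPSC and hILO, at 1.07 and 0.88 ± 0.0638. CPLX2 (complexin 2) had 1 peak in hILO on 20 input reads, at 2.42 ± 0.345, which is the thinnest of those first seen there. CADPS and CADPS2 (CAPS1 and CAPS2) and NSF had 1 peak each in hILO, none in PP, and at least 1 in hPSC or DE, and the peaks of CADPS2 and NSF were covered by earlier ones. NAPA (alpha-SNAP) had 1 peak in hILO on 1146 input reads at 1.30 ± 0.0504, which also names another gene without a symbol.

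The 46 members fell into a few patterns over the 4 stages. First peaks in hILO were seen on 8 members, 20.0% of the 40 with an hILO peak, where 6.27% of the 11563 coding genes with an hILO peak had none before. Another 16 members had a peak in hPSC or DE, none in PP and again in hILO, 40.0% against 12.4% of coding genes, and these include SCG3, PTPRN2, SYT7, SYT13, RAB3B, RIMS2, UNC13A and CADPS. In WT PP of batch 2, 13 of the 16 (81.2%) had a peak, all but SCG3, SYT1 and UNC13A. So did 74.9% of the 1435 coding genes with this pattern. The WT PP peaks of DOC2B, CADPS2 and NSF, 1 each, rested on no input read. What the cells and what the assay gave to the interruption was not tested. The shares of 40.0% and 12.4% moved with the calling limit. They were 33.3% against 20.3% at an unadjusted exomePeak2 p below 1e-05, the limit given in the study's methods. Below 1e-10 they were 42.9% against 25.6%, and with at least 50 input reads 32.4% against 19.2%. A peak in all 4 stages was present on 13 members, or 12 without RAB27A, whose DE peaks lie off its exons, against 50.4% of the coding genes with a peak in any list. The first peaks of SNAP25 and RAB27B came in PP, followed by hILO, SCG2 lacked one in DE, and PCSK1N, RAB3A and EXPH5 had peaks in an earlier stage and not in hILO. The remaining 3, SCGN, RIMS1 and SYTL4, had peaks in batch 2 alone. Of the 8 first seen in hILO, RIMBP2 had peaks in both lists of batch 2, and SLC18A1 and CPLX2 had peaks in A5-KO PP. The count of first peaks moved with the calling limit. At a p below 1e-05, which only some of the deposited peaks pass, it was 13, or 33.3% against 11.0% of coding genes. Below 1e-10 it was 15, or 42.9% against 18.2% of coding genes. At that limit 7 members had a peak in PP, or 15.2% against 39.1% of coding genes.

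Organoid peaks were also compared with earlier ones by position. Of the 109 hILO peaks on members, 60 (55.0%, Wilson 95% interval 45.7 to 64.1, counting error only) were not found in hPSC, DE or PP at the limit of over 50% coverage, against 30.0% of all 31519 hILO peaks. Of the 60, 12 overlapped an earlier peak below that limit, so that 48 (44%) overlapped none, against 22.6% of all hILO peaks. Of these 60, 42 lay on members that had some peak in an earlier stage, such as RAB3B with 5, PTPRN2 with 5 and RIMS2 with 8. A further 32 (29.4%) were found in hPSC or DE and not in PP, against 24.4% of all hILO peaks. Peaks found in PP were 17 (15.6%, interval 9.97 to 23.6) against 45.6%, and peaks found in all 3 earlier stages were 9 (8.26%) against 30.6%.

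**Figure D3:**
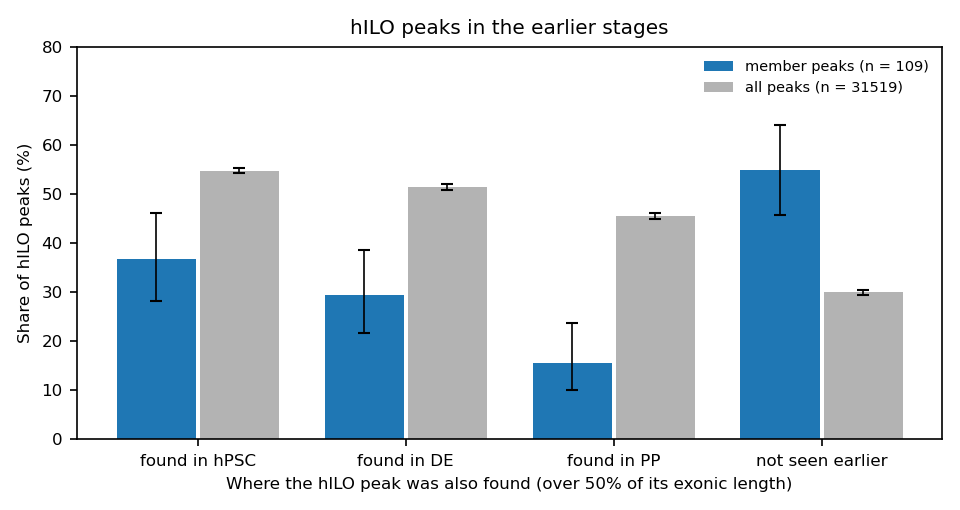
Percentage of hILO peaks that were also found in hPSC, DE and PP, or in none of them, for the 109 member peaks (blue) and all 31519 hILO peaks (grey), with 95% Wilson intervals as bars; a peak counts as found when over 50% of its exonic length is covered on the same strand, and it can be found in several stages. The blue bars are below the grey ones in all 3 earlier stages, most of all in PP with 15.6% against 45.6%, and above them for peaks not seen earlier, with 55.0% against 30.0%.

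GGAC stood in 24 of the 60 peaks not seen earlier (40.0%) and in 29 of the 49 seen earlier (59.2%), close to the shares of 41.7% and 61.8% over all hILO peaks, and the difference was not tested. Per kb of exon, GGAC occurred 3.65 times in the unseen and 6.2 times in the seen member peaks, against 3.07 and 2.66 on the opposite strand. Of the placed peaks 28 of 46 unseen (60.9%) and 19 of 41 seen (46.3%) lay in the 3′ UTR, where the shares of all hILO peaks were 40.3% and 43.2%. Over all placed hILO peaks, 54.0% on members and 42.4% in all lay in the 3′ UTR, and 39.1% and 53.5% in the coding sequence. The median log2 enrichment was 1.37 and 1.52, against 1.5 and 1.54 over all.

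**Figure D4:**
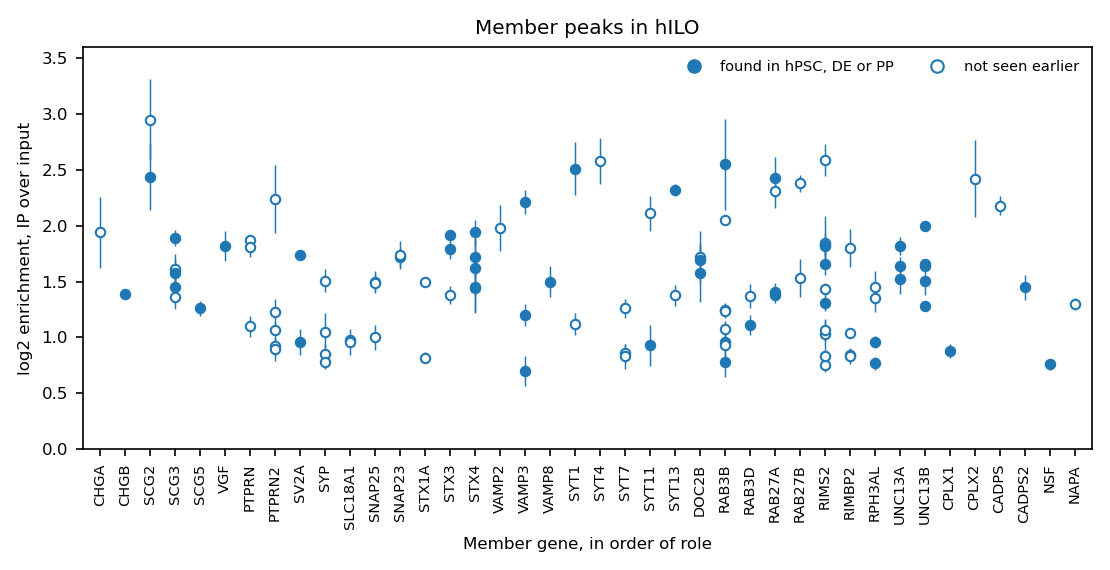
Log2 enrichment of IP over input at each of the 109 hILO peaks on the 40 members that had one, in order of role, with filled points for peaks found in hPSC, DE or PP, open points for peaks not seen earlier, and the counting error as bars. The values lie between 0.70 (VAMP3) and 2.95 (SCG2), and open and filled points overlap over most of that range.

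Where a peak was shared, its enrichment was mostly lower in hILO, as it was over all peaks. The median difference of hILO from hPSC was -0.27 over 40 member pairs and -0.32 over all 17259, from DE it was -0.25 over 32 pairs and -0.23 over all, and from PP -0.12 over 17 pairs and -0.12 over all. In 29 of the 40 pairs hILO was below hPSC, by up to 1.35 at VAMP3, and in 11 it was above. VAMP8 (1.61, 1.41, 1.63 and 1.5 in hPSC, DE, PP and hILO) and the 3′ end of UNC13B had the narrowest range among the peaks found in all 4 stages. Among the same peaks, the difference from hPSC to hILO was largest at VAMP3 (2.05, 1.84, 0.96 and 0.70) and SV2A. The members do not stand apart from all peaks in this respect.

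The knockout was compared with WT PP within batch 2. A peak was present on 23 members in both, on 8 in WT PP alone (SCG5, VGF, SNAP23, STX4, DOC2B, RAB3A, RPH3AL and CPLX1) and on 7 in A5-KO PP alone (SCG3, SLC18A1, SNAP25, SYT1, SCGN, RIMS1 and CPLX2). The 8 are 25.8% of the 31 members peaked in WT PP, where 8.10% of the 12588 coding genes with a WT PP peak had none in A5-KO PP, and the 7 are 23.3% of the 30 peaked in A5-KO PP, against 17.2% of 13965. Of the 122 A5-KO member peaks 79 (64.8%) were not shared with WT PP, against 53.2% of all A5-KO peaks, and 52 of the 95 WT peaks (54.7%) were not shared with A5-KO PP, against 50.0%. The A5-KO-only peaks on members had a median of 25 input reads and 52 of the 79 (65.8%) spanned several exons, against a median of 20 and 53.4% over all A5-KO-only peaks. WT-only peaks on members had a median of 112 and 8 of 52 (15.4%) spanned several exons, against 77 and 19.6% over all. Peaks without a single input read were 10 of the 95 member peaks in WT PP and 25 of the 122 in A5-KO PP (10.5% and 20.5%, against 11.5% and 24.6% of all peaks). Among the members peaked in WT PP alone, VGF and DOC2B rest on 1 such peak each. The 2 CPLX2 peaks of A5-KO PP rested on 1 input read in all, with log2 enrichments of 9.59 and 14.73.

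At the 43 member peaks shared between WT and A5-KO PP on 20 genes, the enrichment was higher in A5-KO PP by 1 or more on the log2 scale at 14 (32.6%, all shared peaks 38.2%) and lower by 1 or more at 13 (30.2%, all 28.8%), and the median difference was -0.18 against 0.25 over all. With at least 50 input reads in both, 22 pairs on 10 genes remained. Here 3 were higher, VAMP3 (1.80 in WT and 4.57 in A5-KO PP, 2.78 ± 0.163), RIMBP2 (3.42 and 6.15, 2.72 ± 0.26) and RAB3D (3.87 and 5.64, 1.77 ± 0.143), which is 13.6% against 22.9% of all such pairs. A further 6 were lower, among them another RIMBP2 peak (3.42 and 1.56), another VAMP3 peak (5.50 and 3.77), SYT13 (5.23 and 3.95) and 3 of EXPH5, the widest of them with 6.65 and 4.98 (-1.68 ± 0.118), or 27.3% against 21.4%. The 2 RIMBP2 differences share 1 WT peak, as do 2 of EXPH5, and VAMP3 and RIMBP2 hold peaks in both directions. No single direction of change was seen on these transcripts without the demethylase, and with 1 list per genotype no difference was tested.

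**Figure D5:**
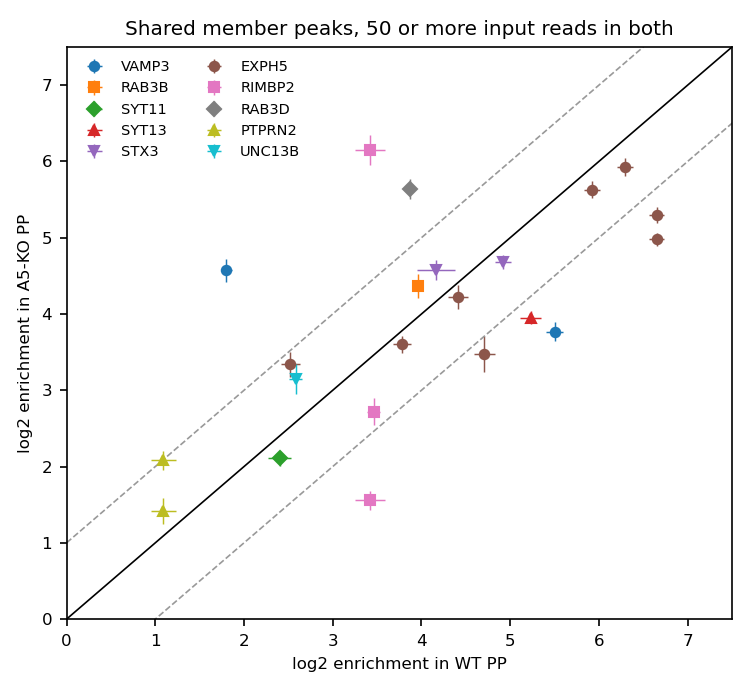
Log2 enrichment in WT PP (x axis) and A5-KO PP (y axis) of the 22 shared member peaks that had 50 or more input reads in each list, coloured by gene, with counting errors as bars; the solid line marks equal values and the dashed lines a difference of 1. Above the upper dashed line lie 3 points, of VAMP3, RIMBP2 and RAB3D, and below the lower one lie 6, of EXPH5, VAMP3, RIMBP2 and SYT13.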

How the data were processed

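The 6 deposited peak lists, made from 24 m6A-seq libraries, were used. The authors ran fastp for trimming and HISAT2 for alignment to GRCh38, keeping 1 alignment of a read, and exomePeak2 for peaks on all libraries of a population together, with an IP to input ratio of at least 1.5 and a p-value below 1e-05 given in the methods. The lists also hold peaks above that p-value and were used as deposited. The deposited lists hold, per peak, pooled raw read counts of input and IP, a log2 enrichment of IP over input with the tool's own size factors and GC offset, p-values raw and adjusted (all adjusted values in the lists were below 0.05), and a score made from the adjusted p-value, which was not used. How the counts of the libraries were pooled, by sum or mean, is not given in the sources used here.

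Peaks were assigned to the 46 genes by the gene identifiers in the lists, reduced to the exons of GENCODE release 44 and placed by their midpoint on the longest coding isoform; those whose midpoint fell outside it were left unplaced. A peak was called found in another list when peaks there, on its own strand, covered over 50% of its exonic length. The counting error given beside an enrichment uses the counts with 0.5 added, and leaves out the spread between samples. Coordinates are 1-based. A total of 46 member genes, 82 other exocytosis genes and the marker lists were described; the members and the lists were chosen with earlier results of these data known. All members are accounted for by role. Named with values are members first peaked in hILO, members with a peak in all 4 stages, the 5 members with most hILO peaks (ties kept), the 5 hILO member peaks of highest enrichment with at least 50 input reads, the 3 largest rises and falls at shared peaks from WT PP to A5-KO PP with that many reads in both, and the 5 other exocytosis genes with most hILO peaks. Values of further members were chosen after they were seen. The lists give no value per library, so the planned edgeR test over libraries could not be made, no test between populations is given, and adjusted p-values are exomePeak2's own for IP over input. Scripts were tested on simulated data and run with Python 3.11.15, pandas 2.3.3, numpy 2.4.6 and scipy 1.17.1.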

Additional observations from a re-analysis of the deposited data

How the results depend on the processing

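No paired analysis was possible because only values pooled over a population's libraries were deposited in the lists used, and leaving out a library, a replicate block and a count test per library were not run for the same reason. The minimum of input reads scaled to each list's depth and the restriction to peaks naming 1 gene were chosen after seeing the data. Values that moved are given by alternative, and the cause was not tested. Requiring an IP to input ratio of at least 3 left 17 members in DE and 26 in hILO, with 51, 33, 29 and 43 peaks in hPSC, DE, PP and hILO and medians of 2.00, 1.92, 1.83 and 1.89. The 26 in hILO were 56.5% of the members, against 48.2% of coding genes. An unadjusted exomePeak2 p below 1e-10 left 16, 7, 20 and 19 members in DE, PP, WT PP and A5-KO PP, with 36, 28, 15, 37 and 30 peaks in hPSC, DE, PP, WT PP and A5-KO PP, medians of 1.90, 1.85, 4.83 and 5.10 in hPSC, PP, WT PP and A5-KO PP, 15 members first seen in hILO, 64.5% of hILO peaks not seen earlier, 21 A5-KO-only and 27 WT-only peaks, and 1 shared peak higher and 3 lower in A5-KO PP by 1 or more. An unadjusted exomePeak2 p below 1e-05, the limit of the methods, left 50, 27, 57 and 56 peaks in hPSC, PP, WT PP and A5-KO PP, with medians of 1.88, 4.41 and 5.41 in hPSC, WT PP and A5-KO PP, 13 members first seen in hILO, 65.0% not seen earlier, 38 A5-KO-only peaks, 5 higher and 6 lower. At least 50 input reads left 45, 27 and 57 peaks in hPSC, PP and A5-KO PP, an A5-KO PP median of 3.44, 13 members first seen in hILO, 35 A5-KO-only peaks, 3 higher and 6 lower. With lists cut to equal size, A5-KO PP had 55 peaks with a median of 5.40, 37 A5-KO-only peaks, 5 higher and 6 lower. With the depth-scaled minimum, the peaks were 44, 40, 27, 49 and 47 in hPSC, DE, PP, WT PP and A5-KO PP, the medians 1.31 in hILO and 3.49 in A5-KO PP, 10 members were interrupted in PP, 64.4% of hILO peaks were not seen earlier, 30 peaks were A5-KO-only and 33 WT-only, 2 were higher and 4 lower. Counting any overlap as found gave 44% not seen earlier and 20 lower in A5-KO PP, and a reciprocal overlap gave 8 lower. DRACH in place of GGAC stood in 96.3% of hILO peaks. Restricting to peaks naming 1 gene left 13 members in PP and 33 in hILO, 84 hILO peaks and 7 members first seen in hILO, and no count in this restriction moved by more than 1.5 times. Here 28.3% of members and 48.5% of coding genes had a peak in PP, and 71.7% and 54.0% had one in hILO. Of those with an hILO peak, 21.2% of members and 7.14% of coding genes were first seen there.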

Other observations

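Beyond the 46 members, 82 other genes of the exocytosis pathway were described, from exocyst subunits to further synaptotagmins and Rab regulators. Of these, 59, 50, 45 and 46 had a peak in hPSC, DE, PP and hILO, and 61 and 68 in the batch 2 lists (WT PP, A5-KO PP), so that hILO held 1 more of them than PP, where it held 23 more of the members. Of the 16403 protein-coding genes with a peak in any list, the shares in the same order were 73.6%, 69.7%, 63.8%, 70.5%, 76.7% and 85.1%. A first peak in hILO was seen on 1 of the 82, UNC13C, a further Munc13 protein, and 7 had peaks in hPSC or DE, none in PP and again in hILO. Both counts lie among the 46 of them with an hILO peak. Over all coding genes with an hILO peak, 6.27% and 12.4% met these patterns, in the same order. The most hILO peaks stood on PCLO (piccolo) with 17, ERC1 with 11, BSN (bassoon) with 10 and STXBP5L with 8, followed by 5 each on PPFIA1, MYO5A, RAB3GAP2, EXOC6B, SYT17 and STXBP5. VAMP7, SYT3, CPLX3 and DOC2A had no peak in any list.

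Of the marker lists not described above, all 5 ductal markers had a peak in PP and in hILO, 1 of 7 acinar markers had one in hILO and none in PP, and of 7 mesenchymal markers 5 had one in PP and 4 in hILO. In WT PP the ductal, acinar and mesenchymal lists had 5, 3 and 4 genes with a peak, and in A5-KO PP 4, 2 and 7. Values of these lists were not tested.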
